A study of Saccharomyces cerevisiae with 6 samples.

Results

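The nuclear genes of the mitochondrial respiratory complexes III and IV and of the ATP synthase, together with their dedicated assembly factors, were followed in 2 strains of the budding yeast Saccharomyces cerevisiae. The genes were taken by a rule on names, as the nuclear genes called ATP, COX or QCR with a number, together with COR1, CYT1 and RIP1. Earlier results of these data were known when the rule was set. The isoform genes COX5A and COX5B were left out of the set, and COX24 is not in it because the deposited tables name that gene QRI5. This gave 46 genes of the 5703 features measured, of which 5557 lie on nuclear chromosomes. By role, 30 of them encode subunits, with 9 for complex III, 8 for complex IV, 5 for the F1 head of the ATP synthase and 8 for its stalk and membrane part. The other 16 encode assembly factors, 10 for complex IV and 6 for the ATP synthase. COX26 has no function in the deposited annotation and was matched by its locus tag, YDR119W-A. No member overlapped another feature or shared a name with one.

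Strain IMF17 draws its glycolysis and alcoholic fermentation solely from a neochromosome, that is, a synthetic extra chromosome, while strain IMX2109 carries these genes in its native genome. The sources used here give no further alleles of either strain, and each genotype is represented by 1 strain. The comparison sets strains that keep the same sugar pathway in different places side by side, here for genes outside that pathway. The libraries also differed in reads from the 2-micron plasmid. Its features took 0.0965 ± 0.00269% of counted reads in IMF17 cultures, against 0% in IMX2109 cultures (SD, n = 3 each). Both were grown with air in selective minimal medium with glucose, 100 mL in a 500 mL flask, to an optical density of 8 at 660 nm. There were 3 biological replicate cultures of each strain and 1 library of polyA RNA from each, and all cultures of a strain go back to 1 frozen stock.

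Respiration in yeast mitochondria passes electrons from dehydrogenases through coenzyme Q to complex III (the cytochrome bc1 complex), from there through cytochrome c to complex IV (cytochrome c oxidase), and on to oxygen. Complexes III and IV move protons out of the matrix, and the ATP synthase uses their return to make ATP. Each complex mixes subunits from nuclear genes with a catalytic or membrane core encoded in mitochondrial DNA, and separate assembly factors insert haem and copper, translate or process the mitochondrial subunits and fold the F1 head. In this yeast, glucose represses many respiratory genes, and the Hap2/3/4/5 complex, which binds CCAAT, is a known activator of many of them.

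Most subunit genes were slightly higher in IMF17, while most assembly factors did not pass the test. Of the 30 subunit genes, 22 rose in IMF17, 0 fell and 8 did not pass the test, with a median log2 fold change of 0.15. Of the 16 assembly factors, 2 rose, 3 fell and 11 did not pass, with a median of -0.026. Levels are the authors' FPKM, reads divided by gene length and library total, and fold changes are IMF17 minus IMX2109 on log2(FPKM + 1). A gene rose or fell when its adjusted p from limma's linear model, over all 5425 features tested, was under 0.05. Of all features tested, 12.1% rose and 25.3% fell, 37.4% in all, with a median log2 fold change of -0.069. Over the whole set of 46 genes, 24 rose, 3 fell and 19 did not pass, and a gene that did not pass is not shown to be equal in both strains. The 3 IMF17 values were each higher than the 3 IMX2109 values for 26 of the 30 subunit genes and 3 of the 16 assembly factors, against 14.5% of all features tested. They were each lower for 0 subunit genes and 5 assembly factors, against 35.1% of all features.

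The changes were small. COX26, at 2.03-fold, was the only one of the 46 genes to differ by 2-fold or more. Apart from COX26, the log2 fold changes of the subunit genes lay between 0.017 and 0.25, with standard errors up to 0.059. Because FPKM divides by all counted reads of a library, and features placed on the neochromosome took 15.3 ± 0.324% of reads in IMF17 cultures, against 9.61 ± 0.519% in IMX2109 cultures (SD, n = 3 each), the fold changes were also computed with other scalings. With median-ratio rescaling, 29 members rose and 1 fell, and 882 features rose and 639 fell over all tested. With rescaling on reads from nuclear chromosomes, 34 members rose and 0 fell, and 1033 features rose and 480 fell over all tested. With FPKM as deposited, 654 features rose and 1375 fell.

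**Figure D1:**
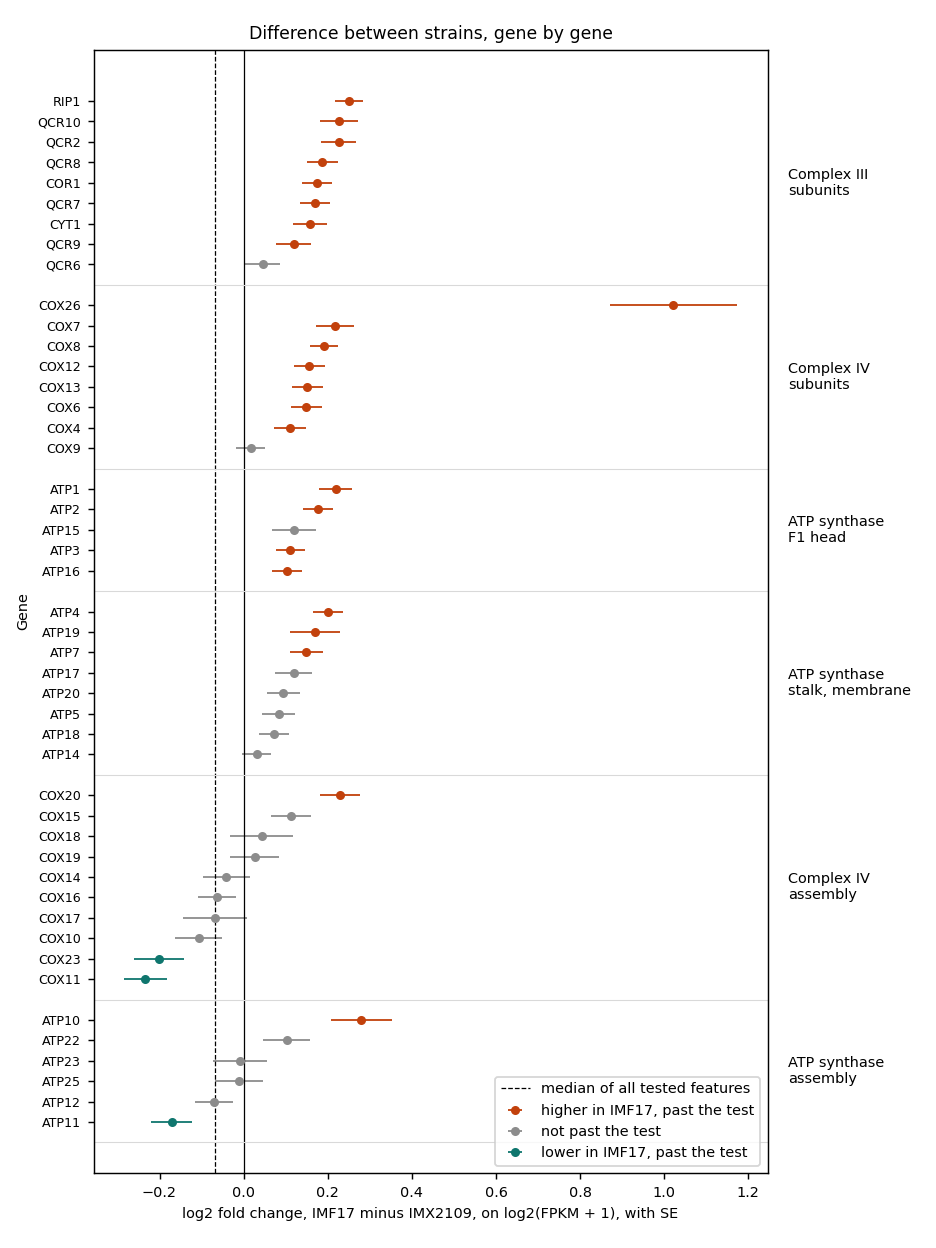
Log2 fold change of each of the 46 genes on the log2(FPKM + 1) scale, IMF17 minus IMX2109, with its standard error, by role. The solid line is 0 and the dashed line is the median of all tested features, -0.069. All 30 subunit genes lie to the right of 0, COX26 stands at 1.02, and the assembly factors lie on both sides.

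Libraries held 14999412 to 15914985 counted reads in IMF17 and 14696540 to 18801158 in IMX2109. In RNA from whole cultures, a change in every cell and a change in some of the cells cannot be told apart. The lowest count of any member in any library was 72 reads, for COX26. IMX2109 replicate 3 stood farthest from the other libraries of its strain, with a chi-square per degree of freedom across features of 17.8 and 8.41, where 1 would be counting noise, against 3.12 to 7.11 for the other pairs of libraries of 1 strain. Without it, the median log2 fold change of the subunit genes was 0.14 and that of all features -0.043.

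Upstream sequences of 5 genes are shown because they stand for the range of the responses, from the largest rise (COX26) to the largest fall (COX11). Between them are the genes with the smallest adjusted p in complex III (RIP1), in the F1 head (ATP1) and, after COX26, in complex IV (COX8). They were read 5′ to 3′ from the S288C R64 genome with its RefSeq annotation, from 300 to 101 bases before the start codon, and the promoters of IMF17 and IMX2109 may differ from them. Capitals mark CCAAT, the site of the Hap complex, and AGGGG, the core of the stress response element. On the other strand these read ATTGG for the first and CCCCT for the second. The stretch of COX26 is chrIV:690714-690913 (plus strand), that of RIP1 chrV:106960-107159 (plus strand), that of COX8 chrXII:910066-910265 (minus strand), that of ATP1 chrII:36753-36952 (plus strand) and that of COX11 chrXVI:301416-301615 (plus strand).
COX26: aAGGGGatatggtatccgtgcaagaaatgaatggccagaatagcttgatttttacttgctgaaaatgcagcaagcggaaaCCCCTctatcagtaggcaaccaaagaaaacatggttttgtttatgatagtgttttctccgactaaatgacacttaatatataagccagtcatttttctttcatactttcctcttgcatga
RIP1: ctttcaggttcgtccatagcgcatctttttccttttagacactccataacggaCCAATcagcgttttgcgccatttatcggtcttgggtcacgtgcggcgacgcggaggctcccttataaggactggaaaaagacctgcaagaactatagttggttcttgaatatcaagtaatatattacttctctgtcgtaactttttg
COX8: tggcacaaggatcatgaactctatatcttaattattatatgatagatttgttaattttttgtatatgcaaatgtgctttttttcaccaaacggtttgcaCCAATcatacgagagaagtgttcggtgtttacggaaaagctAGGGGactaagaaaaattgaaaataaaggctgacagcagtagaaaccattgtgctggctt
ATP1: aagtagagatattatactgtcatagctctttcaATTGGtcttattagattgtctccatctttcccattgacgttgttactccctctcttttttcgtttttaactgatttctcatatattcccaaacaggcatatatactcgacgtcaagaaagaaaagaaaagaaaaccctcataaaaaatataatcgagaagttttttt
COX11: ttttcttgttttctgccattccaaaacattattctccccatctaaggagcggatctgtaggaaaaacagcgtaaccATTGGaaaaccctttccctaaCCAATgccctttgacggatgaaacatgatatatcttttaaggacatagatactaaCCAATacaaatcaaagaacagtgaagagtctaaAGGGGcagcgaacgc

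RIP1, COX8 and ATP1 each had 1 CCAAT in the 300 bases before the start codon, COX11 had 3 and COX26 had none. Over the whole set, CCAAT stood on either strand of those 300 bases in 86.7% of the 30 subunit genes and in 8 of the 16 assembly factors, against 41.8% of 6007 nuclear genes of R64. Among the subunit genes it was present in 18 of the 22 that rose and in 8 of the 8 that did not pass the test. AGGGG was present in 36.7% of the subunit genes and 6.25% of the assembly factors, against 22.2% of all genes, and COX26 held it at 2 places. The consensus motif of the haem-responsive factor Hap1 was found on either strand before 1 member, QCR6, against 0.133% of all genes. The 3 motifs do not overlap one another in the stretches shown, and a match in a window says nothing of binding.

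Nearly every complex III gene rose. Of 9 subunit genes, 8 rose in IMF17, against 12.1% of all features tested, and 1 did not pass. The median log2 fold change was 0.17. RIP1, the Rieske iron-sulfur protein that takes electrons from ubiquinol, had 890.0, 885 and 866 FPKM in the IMF17 libraries, against 734, 747 and 739 FPKM in the IMX2109 libraries. Its strains did not overlap, with a log2 fold change of 0.25 ± 0.034 (SE) and a limma adjusted p of 0.000228. QCR2, one of the large core proteins on the matrix side, had 685, 698 and 678 FPKM in the IMF17 libraries, against 559.7, 588 and 616 FPKM in the IMX2109 libraries, with a log2 fold change of 0.23 ± 0.041 (SE) and a limma adjusted p of 0.00177. COR1, the other core protein, averaged 760.2 ± 11.6 FPKM in IMF17 cultures, against 673 ± 17.7 FPKM in IMX2109 cultures (SD, n = 3 each), with a log2 fold change of 0.17 ± 0.036 (SE) and a limma adjusted p of 0.00345.

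The cytochrome c1 gene CYT1, whose haem passes electrons to cytochrome c, averaged 930.3 ± 43.4 FPKM in IMF17 cultures, against 833 ± 9.43 FPKM in IMX2109 cultures (SD, n = 3 each), with a log2 fold change of 0.16 ± 0.041 (SE) and a limma adjusted p of 0.0115. The remaining rises were in small subunits without redox groups. These were QCR10 (0.23, limma adjusted p 0.0027), QCR8 (0.19, limma adjusted p 0.00272), QCR7 (0.17, limma adjusted p 0.00389) and QCR9 (0.12, limma adjusted p 0.0431), given as log2 fold changes. QCR7 and QCR8 bind cytochrome b early in assembly, and QCR7 had the highest level of all 46 genes, at 1449.5 ± 26.1 FPKM in IMF17 cultures, against 1288 ± 27.1 FPKM in IMX2109 cultures (SD, n = 3 each). The rises of CYT1 and QCR9 were lost when IMF17 replicate 1, IMF17 replicate 2 or IMX2109 replicate 2 was left out, and that of QCR9 also without IMX2109 replicate 3 and with limma-voom on the recovered reads.

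QCR6, the acidic subunit next to cytochrome c1, was the exception. It had 1071, 1144 and 1183 FPKM in the IMF17 libraries, against 1112, 1082 and 1096 FPKM in the IMX2109 libraries. The strains overlapped, with a log2 fold change of 0.045 ± 0.042 (SE) and a limma adjusted p of 0.43. The ratio of QCR6 to RIP1 within a library, which no scaling of the library can change, was 1.20, 1.29 and 1.37 in IMF17, against 1.51, 1.45 and 1.48 in IMX2109. The ratio was lower in every IMF17 library, but the pair was picked for its difference and the ratio was not tested. The gene models of QCR9 and QCR10 in the deposited tables are longer than in R64, at 960 against 414 bases and 361 against 297 bases, so their levels per length are not comparable with those of other genes. The same holds for ATP14, with 673 against 375 bases, and to a lesser degree for ATP22 and ATP23, whose models are shorter than in R64.

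**Figure D2:**
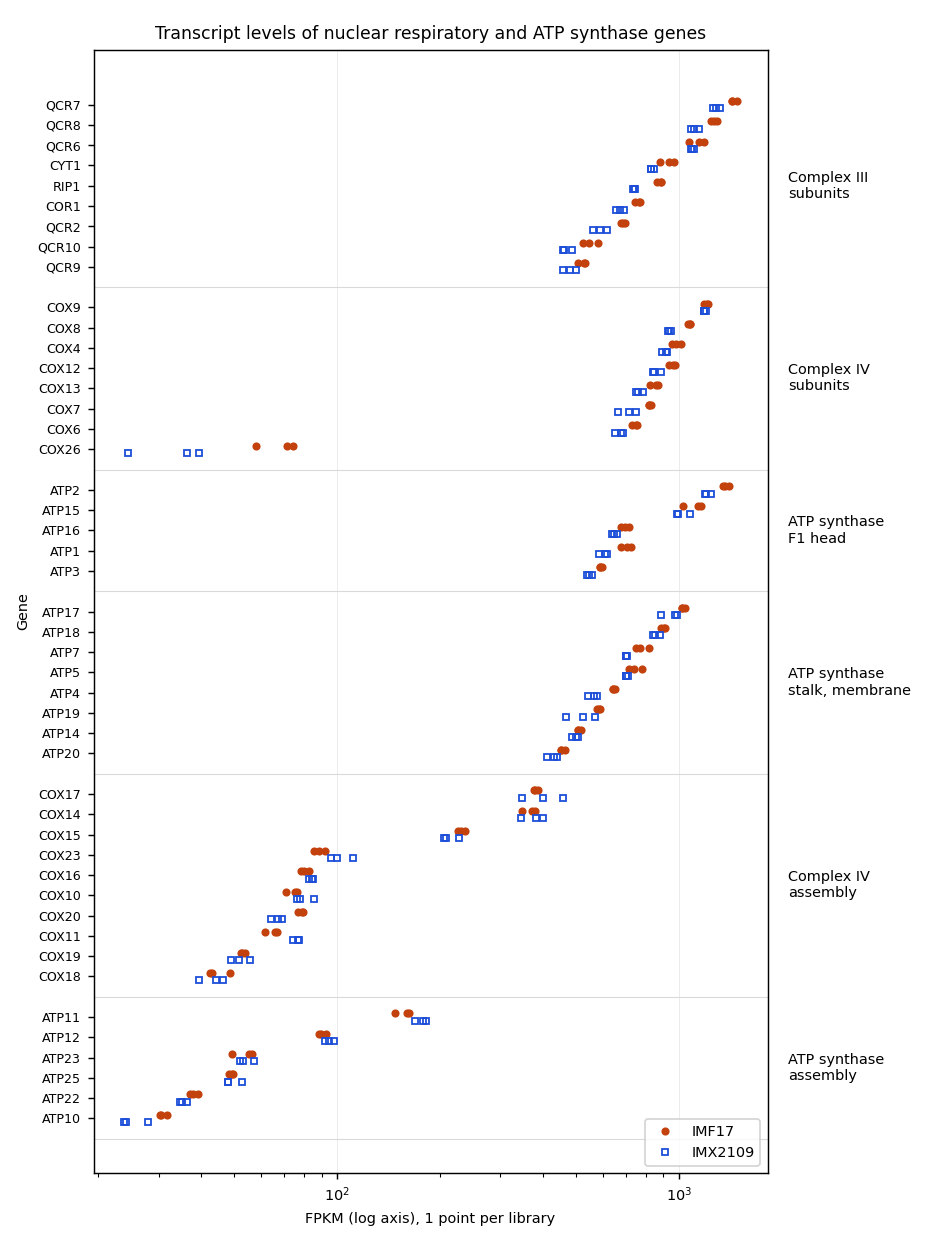
FPKM of each of the 46 genes in each library, on a log axis, 1 point per library, by role. Subunit genes other than COX26 averaged 427 to 1450 FPKM in either strain, while assembly factors averaged 25.3 to 403 FPKM, and the strains differ by much less than genes do.

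Complex IV showed 7 rises among 8 subunit genes, against 12.1% of all features tested, and 1 gene that did not pass. The median log2 fold change was 0.15. COX8, a small subunit of the membrane part, had 1076, 1066 and 1076 FPKM in the IMF17 libraries, against 933, 949.9 and 936 FPKM in the IMX2109 libraries. The strains lay apart, with a log2 fold change of 0.19 ± 0.033 (SE) and a limma adjusted p of 0.00128. COX7, another small membrane subunit, averaged 823 ± 3.90 FPKM in IMF17 cultures, against 709 ± 43.8 FPKM in IMX2109 cultures (SD, n = 3 each), with a log2 fold change of 0.22 ± 0.045 (SE) and a limma adjusted p of 0.00377. The other rises were COX12 (0.16, limma adjusted p 0.00823), COX13 (0.15, limma adjusted p 0.00872), COX6 (0.15, limma adjusted p 0.00949) and COX4 (0.11, limma adjusted p 0.0404), as log2 fold changes. COX12 and COX13 are peripheral subunits, COX6 lies on the matrix side, and COX4 carries zinc. Leaving out IMF17 replicate 2 took the call from COX6, and leaving out IMF17 replicate 1, IMF17 replicate 2, IMX2109 replicate 2 or IMX2109 replicate 3 took it from COX4, as did limma-voom on the recovered reads.

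COX9, a small membrane subunit, had 1221, 1184 and 1208 FPKM in the IMF17 libraries, against 1184, 1187 and 1199.8 FPKM in the IMX2109 libraries. These values overlapped, with a log2 fold change of 0.017 ± 0.034 (SE) and a limma adjusted p of 0.724. The ratio of COX9 to COX8 was 1.14, 1.11 and 1.12 in the IMF17 libraries, against 1.27, 1.25 and 1.28 in the IMX2109 libraries. COX9 was lower relative to COX8 in every IMF17 library, and this pair too was picked for its difference.

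COX26 showed the largest change of the set and the lowest level of the subunit genes. It encodes a small membrane protein found with complex IV in the supercomplexes that it forms with complex III. COX26 had 74.4, 71.3 and 57.8 FPKM in the IMF17 libraries, against 39.4, 36.4 and 24.4 FPKM in the IMX2109 libraries. The strains did not overlap, and IMX2109 replicate 3 was the lowest of the libraries. The log2 fold change was 1.02 ± 0.15 (SE), a ratio of mean FPKM of 2.03, with a limma adjusted p of 0.000451. Without IMX2109 replicate 3, the log2 fold change was 0.82, with a limma adjusted p of 0.000268.

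These COX26 values rest on few reads, 235, 215 and 185 in the IMF17 libraries and 149, 132 and 72 in the IMX2109 libraries. Its level per length lay within the range of the assembly factors, at 67.8 ± 8.81 FPKM in IMF17 cultures, against 33.4 ± 7.96 FPKM in IMX2109 cultures (SD, n = 3 each). The genes beside it, looked up after its values were seen, did not rise. VBA4, which ends 480 bases away on the same strand, had a log2 fold change of -0.12 ± 0.058 (SE) and a limma adjusted p of 0.138, and TRM1, 340 bases away on the other strand, fell, with a log2 fold change of -0.27 ± 0.070 (SE) and a limma adjusted p of 0.0116.

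The F1 head of the ATP synthase, which carries the catalytic sites, had 4 rises among 5 genes, against 12.1% of all features tested. Its median log2 fold change was 0.12. ATP1, the alpha subunit, had 724, 704 and 677 FPKM in the IMF17 libraries, against 616, 607 and 586 FPKM in the IMX2109 libraries. It gave a log2 fold change of 0.22 ± 0.039 (SE) and a limma adjusted p of 0.0015. ATP2, the catalytic beta subunit, had 1399, 1366 and 1350.2 FPKM in the IMF17 libraries, against 1241, 1203 and 1196 FPKM in the IMX2109 libraries, with a log2 fold change of 0.18 ± 0.036 (SE) and a limma adjusted p of 0.00302. Both subunits occur in equal number in the enzyme, yet ATP2 transcripts were the more abundant per length in every library. The ratio of ATP2 to ATP1 was 1.93, 1.94 and 1.99 in IMF17, against 2.02, 1.98 and 2.04 in IMX2109, and these ranges overlapped.

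The other F1 genes encode the central stalk that turns inside the head. ATP3, the gamma subunit, averaged 591 ± 5.72 FPKM in IMF17 cultures, against 548 ± 8.28 FPKM in IMX2109 cultures (SD, n = 3 each), with a log2 fold change of 0.11 ± 0.034 (SE) and a limma adjusted p of 0.0253. ATP16, the delta subunit, had 697, 679 and 715 FPKM in the IMF17 libraries, against 659.7, 648 and 639 FPKM in the IMX2109 libraries. Its strains did not overlap, with a log2 fold change of 0.10 ± 0.036 (SE) and a limma adjusted p of 0.0437, the lowest fold change of the head. ATP15, the epsilon subunit, did not pass the test, with a log2 fold change of 0.12 ± 0.053 (SE) and a limma adjusted p of 0.0989. Of the F1 head, 2 genes rose when IMF17 replicate 1, IMF17 replicate 2 or IMX2109 replicate 2 was left out. ATP3 lost its call in each of these cases, and ATP16 in these, without IMF17 replicate 3, without IMX2109 replicate 3 and with limma-voom.

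A smaller share of genes passed the test in the stalk and membrane part than in the other subunit groups, and this contrast was not tested. Of its 8 genes, 3 rose, against 12.1% of all features tested, and 5 did not pass. The median log2 fold change was 0.11, and the strains did not overlap for 7 of the 8. ATP4, subunit b of the peripheral stalk, had 650.3, 644 and 640.5 FPKM in the IMF17 libraries, against 542, 577 and 565 FPKM in the IMX2109 libraries. The gap between strains was wider than the spread within either, with a log2 fold change of 0.20 ± 0.037 (SE) and a limma adjusted p of 0.00171. ATP7, subunit d of the same stalk, had 769.6, 819.6 and 752 FPKM in the IMF17 libraries, against 706, 700.1 and 702 FPKM in the IMX2109 libraries, with a log2 fold change of 0.15 ± 0.040 (SE) and a limma adjusted p of 0.0132. ATP19, a small membrane subunit called k, averaged 583 ± 6.35 FPKM in IMF17 cultures, against 520.0 ± 49.5 FPKM in IMX2109 cultures (SD, n = 3 each), with a log2 fold change of 0.17 ± 0.059 (SE) and a limma adjusted p of 0.0426. ATP7 lost its call without IMF17 replicate 2 or IMX2109 replicate 2. ATP19 lost its call when any library other than IMX2109 replicate 1 was left out, and with limma-voom.

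Stalk and membrane genes that did not pass were ATP17 (0.12, limma adjusted p 0.0552), ATP20 (0.094, limma adjusted p 0.0775), ATP5 (0.083, limma adjusted p 0.123), ATP18 (0.072, limma adjusted p 0.134) and ATP14 (0.031, limma adjusted p 0.522), as log2 fold changes. ATP5 encodes the protein that joins the peripheral stalk to the head, ATP17 and ATP18 encode small membrane subunits, and ATP20 encodes subunit g, which has a part in dimers of the enzyme. ATP14, subunit h of the peripheral stalk, had 517, 507 and 506 FPKM in the IMF17 libraries, against 509, 500.2 and 488 FPKM in the IMX2109 libraries. The ranges of the strains overlapped. Only 1 gene of the 8 rose when IMF17 replicate 2 or IMX2109 replicate 2 was left out. With rescaling on nuclear reads, 8 of the 8 rose, against 1033 of all 5427 features tested.

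**Figure D3:**
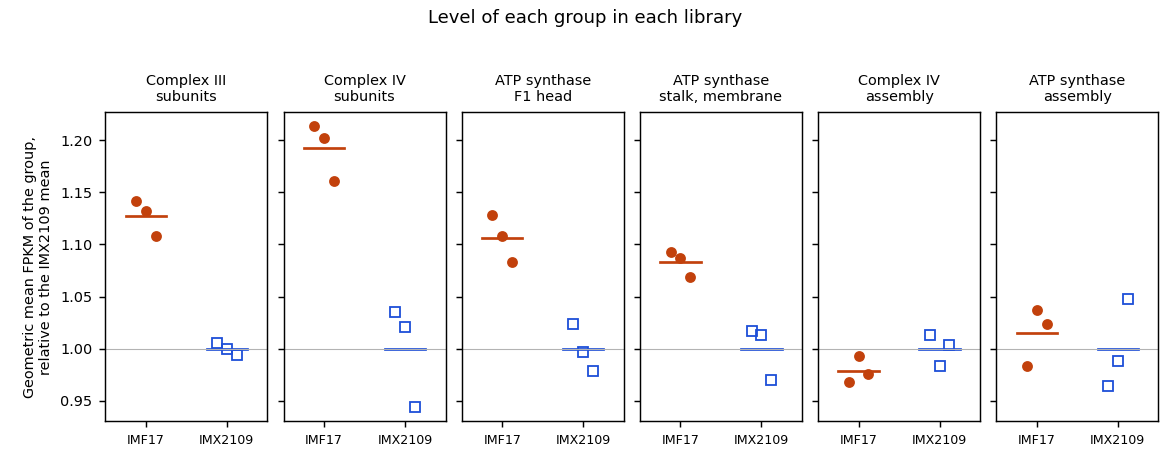
Geometric mean FPKM of each role group in each library, relative to the mean of the IMX2109 libraries, 1 point per library, with IMF17 on the left of each panel. The IMF17 points lie higher than the IMX2109 points in the 4 groups of subunits, and the strains overlap in the 2 groups of assembly factors.

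Taken as geometric means per library, complex III stood at 859 ± 13.1 FPKM in IMF17 cultures, against 762 ± 4.42 FPKM in IMX2109 cultures, a ratio of 1.13. Complex IV reached 674 ± 15.5 FPKM in IMF17 cultures, against 566 ± 27.8 FPKM in IMX2109 cultures, a ratio of 1.19, which was 1.10 without COX26. The F1 head gave 848 ± 17.3 FPKM in IMF17 cultures, against 767 ± 17.4 FPKM in IMX2109 cultures, a ratio of 1.11. The stalk and membrane part gave 683 ± 7.73 FPKM in IMF17 cultures, against 631 ± 16.6 FPKM in IMX2109 cultures, a ratio of 1.08 (SD, n = 3 each throughout).

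Most assembly factors of complex IV did not pass the test. Of 10 genes, 1 rose, 2 fell and 7 did not pass, shares near those over all features tested (12.1% and 25.3%). COX20, a chaperone of the mitochondrially made subunit Cox2, had 79.1, 76.9 and 79.2 FPKM in the IMF17 libraries, against 67.2, 64.2 and 68.9 FPKM in the IMX2109 libraries. This rise had a log2 fold change of 0.23 ± 0.048 (SE) and a limma adjusted p of 0.00386. COX11, which delivers copper to the core subunit Cox1, had 61.4, 65.6 and 66.7 FPKM in the IMF17 libraries, against 77.1, 74.2 and 76.9 FPKM in the IMX2109 libraries. The strains did not overlap, with a log2 fold change of -0.23 ± 0.050 (SE) and a limma adjusted p of 0.00439, and the call was lost on nuclear reads (limma adjusted p = 0.0545). COX23, a small intermembrane space protein needed for complex IV assembly, had 85.4, 88.6 and 91.9 FPKM in the IMF17 libraries, against 111, 100.0 and 95.6 FPKM in the IMX2109 libraries, with a log2 fold change of -0.20 ± 0.059 (SE) and a limma adjusted p of 0.0208. The fall of COX23 was lost when IMF17 replicate 1, IMF17 replicate 2 or IMX2109 replicate 1 was left out, and with both rescalings.

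Haem A of complex IV is made by COX10, the haem O synthase, and COX15, the haem A synthase. Neither passed, at COX10 (-0.11, limma adjusted p 0.161) and COX15 (0.11, limma adjusted p 0.0809) as log2 fold changes. COX17, which hands on copper, and COX19 are small intermembrane space proteins, and did not pass either, at COX17 (-0.068, limma adjusted p 0.513) and COX19 (0.026, limma adjusted p 0.753). The same held for COX14 (-0.041, limma adjusted p 0.59) and COX16 (-0.064, limma adjusted p 0.288), which act in the assembly of Cox1, and for COX18 (0.043, limma adjusted p 0.68), which helps to export the tail of Cox2. The median over the 10 genes was -0.053, and it was above 0 with both rescalings, at 0.013 with the median ratio and 0.043 on nuclear reads.

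Assembly factors of the ATP synthase gave 1 rise and 1 fall among 6 genes, against 12.1% and 25.3% of all features tested. ATP10, which helps the mitochondrial subunit Atp6 to join the ring of the enzyme, had 30.4, 30.5 and 31.7 FPKM in the IMF17 libraries, against 23.8, 24.1 and 27.9 FPKM in the IMX2109 libraries. Its libraries did not overlap, with a log2 fold change of 0.28 ± 0.073 (SE) and a limma adjusted p of 0.0118, but the call was lost without IMX2109 replicate 2 (limma adjusted p = 0.0578). ATP11, a chaperone of the beta subunit, had 148, 163 and 160.2 FPKM in the IMF17 libraries, against 169, 178 and 183 FPKM in the IMX2109 libraries. This was lower in all IMF17 libraries, with a log2 fold change of -0.17 ± 0.049 (SE) and a limma adjusted p of 0.0183, and the call was lost without IMF17 replicate 1, without IMX2109 replicate 2 and with both rescalings.

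The partner chaperone of the alpha subunit, ATP12, had 88.7, 92.7 and 89.9 FPKM in the IMF17 libraries, against 92.3, 98.0 and 94.8 FPKM in the IMX2109 libraries, with a log2 fold change of -0.070 ± 0.045 (SE) and a limma adjusted p of 0.248. ATP22, a translation factor for Atp6, ATP23, a protease that trims Atp6, and ATP25, which stabilizes the mRNA of the ring subunit, did not pass either, at ATP22 (0.10, limma adjusted p 0.179), ATP23 (-0.0098, limma adjusted p 0.919) and ATP25 (-0.011, limma adjusted p 0.896) as log2 fold changes. ATP23 had 49.4, 56.5 and 55.1 FPKM in the IMF17 libraries, against 52.1, 52.9 and 57.1 FPKM in the IMX2109 libraries. These values overlapped. The lowest change of this group was that of ATP11. Its ratio to ATP2, the subunit that it folds, was 0.106, 0.119 and 0.119 in IMF17, against 0.136, 0.148 and 0.153 in IMX2109. Because ATP11 was lower and ATP2 higher in every IMF17 library, this ratio had to separate the strains, and it was not tested. The median over the 6 assembly factors was -0.010, and above 0 with both rescalings, at 0.055 with the median ratio and 0.084 on nuclear reads.

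Subunit transcripts were more abundant relative to assembly factor transcripts in every IMF17 library than in any IMX2109 library, and scaling a library cannot change such a ratio. A bias that acts by gene length would not cancel in the ratio, and such a bias was not tested. The geometric mean of the 30 subunit genes was 9.09, 8.68 and 8.62 times that of the 16 assembly factors in the IMF17 libraries, against 7.93, 7.91 and 7.37 times in the IMX2109 libraries. Both sets of 3 values lay apart. The geometric mean of the subunit genes was 756 ± 12.9 FPKM in IMF17 cultures, against 670 ± 16.9 FPKM in IMX2109 cultures (SD, n = 3 each). That of the assembly factors was 86.0 ± 1.55 FPKM in IMF17 cultures, against 86.6 ± 1.55 FPKM in IMX2109 cultures (SD, n = 3 each). The ratio therefore largely restates the rises of the subunit genes, and it was not tested. Without COX26, taken out after its values were seen, the ratio was 9.85, 9.42 and 9.41 in IMF17, against 8.75, 8.75 and 8.25 in IMX2109. The members together made up 1.55 ± 0.0219% of counted reads in IMF17 cultures, against 1.40 ± 0.0109% in IMX2109 cultures (SD, n = 3 each).

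**Figure D4:**
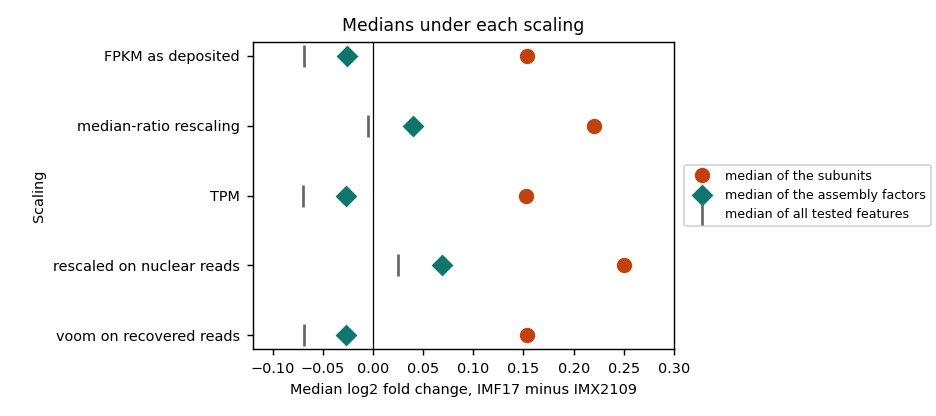
Median log2 fold change, IMF17 minus IMX2109, of the 30 subunit genes (circles), the 16 assembly factors (diamonds) and all tested features (bars) under each scaling. The median of the subunits stays above that of all features by 0.22 to 0.23 under each, while the median of the assembly factors is below 0 with FPKM as deposited, TPM and voom and above 0 with both rescalings.

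Rescaling moved all genes together. The median of all features was -0.069 with FPKM as deposited, -0.0047 with the median ratio and 0.025 on nuclear reads. The median of the subunit genes stood at 0.15, 0.22 and 0.25 in these scalings, and that of the assembly factors at -0.026, 0.040 and 0.069. The sign of the subunits' shift therefore did not turn in these scalings, while the sign of the assembly factors' median did.

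Rises were also found among respiratory genes outside the 46. In complex II, succinate dehydrogenase, 5 of 8 genes rose and 0 fell, against 12.1% and 25.3% of all features tested. SDH2, the iron-sulfur subunit, had 601, 600.3 and 568 FPKM in the IMF17 libraries, against 451, 451 and 448 FPKM in the IMX2109 libraries, with a log2 fold change of 0.39 ± 0.037 (SE) and a limma adjusted p of 1.46e-05. The flavoprotein SDH1 and the membrane anchors SDH3 and SDH4 rose too, at SDH1 (0.31, limma adjusted p 0.000483), SDH3 (0.22, limma adjusted p 0.000928) and SDH4 (0.23, limma adjusted p 0.00599) as log2 fold changes. Among the complex II assembly factors, SDH6 (0.61, limma adjusted p 0.000106) rose, while SDH5 (0.030, limma adjusted p 0.676), SDH7 (-0.064, limma adjusted p 0.33) and SDH8 (0.11, limma adjusted p 0.153) did not pass.

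All 6 measured genes of the list of NADH dehydrogenases, cytochrome c and the complex IV isoform subunit COX5A rose, against 12.1% of all features. CYC7, the cytochrome c isoform made mostly at low oxygen, had 32.9, 32.6 and 28.8 FPKM in the IMF17 libraries, against 6.38, 5.99 and 7.36 FPKM in the IMX2109 libraries. The strains lay far apart, with a log2 fold change of 2.10 ± 0.090 (SE) and a limma adjusted p of 1.23e-08. The main isoform CYC1 had 2695, 2659 and 2547 FPKM in the IMF17 libraries, against 2466, 2462 and 2254 FPKM in the IMX2109 libraries, with a log2 fold change of 0.14 ± 0.046 (SE) and a limma adjusted p of 0.0342. NDI1, the internal NADH dehydrogenase that stands in for a complex I in this yeast, had 352, 360.0 and 342 FPKM in the IMF17 libraries, against 193, 221 and 236 FPKM in the IMX2109 libraries, with a log2 fold change of 0.70 ± 0.063 (SE) and a limma adjusted p of 9.69e-06. The external dehydrogenases and COX5A followed, at NDE2 (0.65, limma adjusted p 0.00174), NDE1 (0.19, limma adjusted p 0.00244) and COX5A (0.13, limma adjusted p 0.0324) as log2 fold changes. NDE2 is a low gene, at 4.19 ± 0.573 FPKM in IMF17 cultures, against 2.30 ± 0.272 FPKM in IMX2109 cultures (SD, n = 3 each), and its log2 fold change was 0.33 with a pseudocount of 5. The calls of CYC1 and COX5A were lost when IMF17 replicate 1, IMF17 replicate 2 or IMX2109 replicate 2 was left out, and that of COX5A also without IMF17 replicate 3 or IMX2109 replicate 1.

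In a list of ATP synthase regulators, with 1 assembly factor (FMC1) and 1 membrane subunit (TIM11), transcripts of 4 of 5 genes rose, against 12.1% of all features. STF2, which was described as a stabilizing factor of the inhibitor of the enzyme, had 317, 297 and 272 FPKM in the IMF17 libraries, against 171, 179 and 153 FPKM in the IMX2109 libraries, with a log2 fold change of 0.81 ± 0.066 (SE) and a limma adjusted p of 4.11e-06. STF1, an inhibitor protein, had 362, 399 and 379.7 FPKM in the IMF17 libraries, against 289, 248 and 278 FPKM in the IMX2109 libraries, with a log2 fold change of 0.49 ± 0.058 (SE) and a limma adjusted p of 8.96e-05. INH1, the main inhibitor of ATP hydrolysis, changed by 0.20 (limma adjusted p 0.00617), and FMC1, an assembly factor of the F1 head in heat, by 0.59 (limma adjusted p 0.00929) on the log2 scale. FMC1 is low too, with 17 to 47 reads per library, and its log2 fold change was 0.32 with a pseudocount of 5. TIM11, subunit e of the membrane part, did not pass, with a log2 fold change of 0.10 ± 0.056 (SE) and a limma adjusted p of 0.174.

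**Figure D5:**
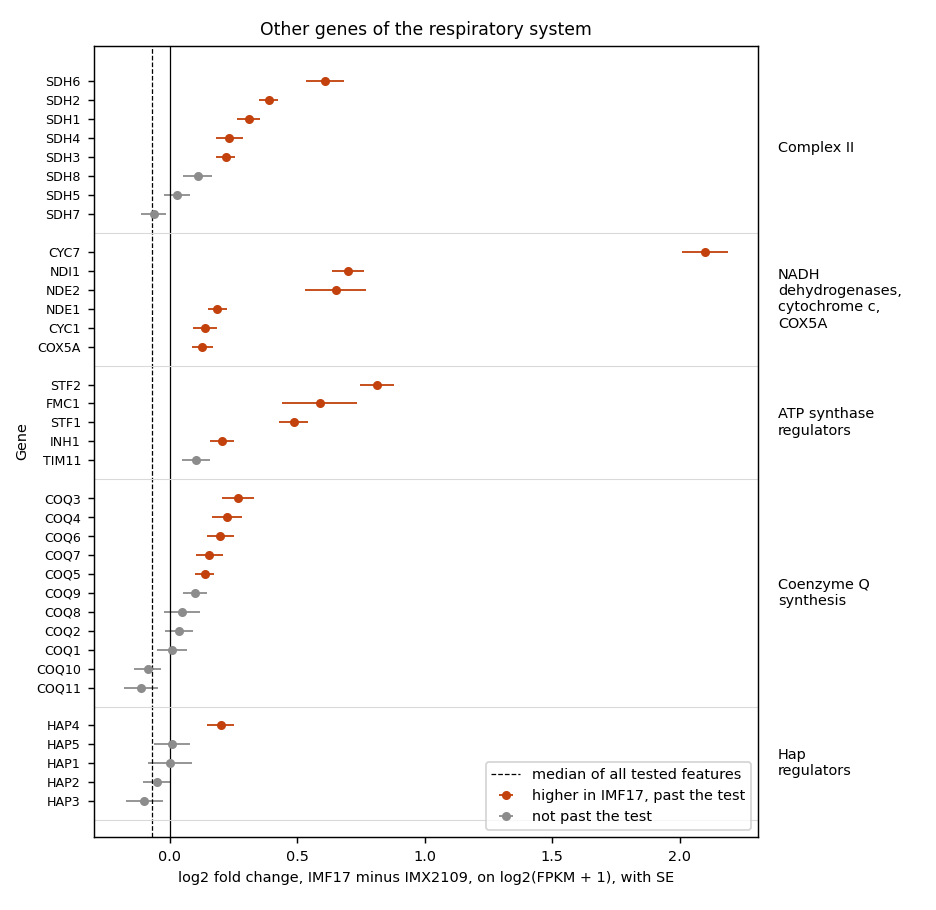
Log2 fold change on the log2(FPKM + 1) scale, IMF17 minus IMX2109, with its standard error, for genes of the respiratory system outside the 46. CYC7 lies farthest to the right at 2.10. All 6 genes of its list and 5 of the 8 genes of complex II passed as higher in IMF17, against 12.1% of all features.

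Of the Hap regulators, 1 of 5 rose, against 12.1% of all features tested, and the median log2 fold change of the 5 was 0.00092. HAP4, the subunit that activates transcription and that is itself repressed by glucose, had 146, 136 and 128 FPKM in the IMF17 libraries, against 118, 122 and 117 FPKM in the IMX2109 libraries. The strains did not overlap, with a log2 fold change of 0.20 ± 0.052 (SE) and a limma adjusted p of 0.0121. The DNA-binding subunits and HAP1 did not pass, at HAP2 (-0.051, limma adjusted p 0.478), HAP3 (-0.10, limma adjusted p 0.301), HAP5 (0.0089, limma adjusted p 0.93) and HAP1 (0.00092, limma adjusted p 0.994) as log2 fold changes. Whether the level of HAP4 bears on that of the subunit genes was not tested.

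In coenzyme Q synthesis, 5 of 11 genes rose and 0 fell, against 12.1% and 25.3% of all features tested. The rises were COQ3 (0.27, limma adjusted p 0.00707), COQ4 (0.22, limma adjusted p 0.0129), COQ6 (0.20, limma adjusted p 0.0133), COQ5 (0.14, limma adjusted p 0.0169) and COQ7 (0.16, limma adjusted p 0.0412), as log2 fold changes. COQ5, COQ6 and COQ7 were named after their values were seen. COQ3 and COQ5 encode methyltransferases, COQ6 and COQ7 hydroxylases, and COQ4 a member of the biosynthetic complex. Leaving out a library lowered the count to 1 (without IMF17 replicate 2), 2 (without IMF17 replicate 1 or without IMX2109 replicate 2), 3 (without IMX2109 replicate 1) or 4 (without IMX2109 replicate 3). COQ7 lost its call in all of these cases, and also with TPM and with limma-voom on the recovered reads.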

How the data were processed

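The authors deposited 1 table of FPKM (reads divided by gene length and library total) per library, for 6 libraries and 5703 features. The submitters' processing notes name STAR 2.5.4a, featureCounts, SAMtools, edgeR and DESeq2. The sources used here give neither their roles nor the use of strand in counting. Per the file headers, features lie on an assembly of IMF17, so both strains were counted against its gene models. Per the labels' protocols, a stranded mRNA kit was used. Groups came from the sample titles.

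FPKM times length gave whole reads for 100% of values within 0.01 reads. Features with a mean of at least 1 FPKM entered limma 3.58.1 (R 4.3.3), with a trended prior variance and two-sided p-values, on log2(FPKM + 1), which understates changes of low genes, with Benjamini-Hochberg adjustment over all 5425 features and a threshold of 0.05. The test was checked on simulated data, with changes put into features of all levels. There it missed nearly all changes of about the median size of the subunit genes. Ratios of means are called folds. Tables and plots were made with Python 3.11.15, pandas 2.3.3, numpy 2.4.6 and matplotlib 3.10.9.

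Members and lists were chosen with earlier results of these data known. Every member was named, with values in every library for the 2 smallest adjusted p and the lowest fold change of each role group and for the 3 largest and 3 smallest changes of the set. Of other lists, the 2 smallest adjusted p were named, or all genes of lists of up to 8. Alternatives were pseudocounts of 0.1 and 5, no filter, a filter at 10 FPKM, median-ratio, TPM and nuclear-read scaling, robust variances, limma-voom on the recovered reads, a block for the replicate number, and leaving out each library. Taking out COX26 was added after its values were seen.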

Additional observations from a re-analysis of the deposited data

How the results depend on the processing

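Of the 24 members that rose, 15 passed the test in the same direction under all 16 alternatives, and each member that fell lost its call under at least 1 of them. With median-ratio rescaling, 639 features and 1 member fell (1 complex IV and 0 ATP synthase assembly factors), and 6 stalk and membrane genes, 2 complex IV and 2 ATP synthase assembly factors rose. The medians there were 0.18 over members, 0.24 in complex III, 0.22 in complex IV, 0.19 in the F1 head, 0.17 in the stalk and membrane part, 0.013 in complex IV assembly and 0.055 in ATP synthase assembly, the last pair reversed in sign. On nuclear reads, 1033 features rose, 480 fell, and 0 members and 1 other respiratory gene fell, while 8 stalk and membrane genes, 2 complex IV and 2 ATP synthase assembly factors rose. The medians were 0.21 over members, 0.27, 0.25, 0.22 and 0.20 in the 4 subunit groups in the same order, and, reversed, 0.043 and 0.084 in the assembly groups.

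Signs reversed in genes that did not pass, to 0.025 (COX14), 0.054 (ATP25), 0.055 (ATP23), 0.0011 (COX16), 0.0024 (SDH7) and 0.014 (HAP2) with the median ratio, to -0.00054 (HAP1) with TPM, and to 0.025 (ATP12), 0.028 (COX17), 0.055 (COX14), 0.083 (ATP25), 0.085 (ATP23), 0.031 (COX16), 0.032 (SDH7) and 0.043 (HAP2) on nuclear reads. The cause of these changes was not tested, beyond the shift of all genes by rescaling.

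Leaving out 1 library at a time gave 16 to 26 members that rose and 1 to 4 that fell. Over all features tested, 516 to 761 rose and 939 to 1326 fell in the same fits. There were 2 to 5 rises in the F1 head and 1 to 4 in the stalk and membrane part. Complex IV assembly had 1 to 2 rises and 1 to 3 falls, and ATP synthase assembly had 0 to 1 of each. The medians ranged from 0.096 to 0.13 over members, 0.17 to 0.19 in complex III, 0.10 to 0.17 in the F1 head, 0.077 to 0.13 in the stalk and membrane part, -0.063 to -0.0087 in complex IV assembly and -0.035 to 0.033 in ATP synthase assembly. Genes that did not pass and whose sign turned ranged from -0.047 to 0.048 (ATP23), -0.035 to 0.035 (ATP25), -0.10 to 0.0052 (COX14), -0.17 to 0.029 (COX17), -0.023 to 0.092 (COX18), -0.018 to 0.075 (COX19), -0.066 to 0.079 (HAP1), -0.043 to 0.073 (HAP5) and -0.011 to 0.065 (SDH5).

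Replicate numbers were not taken as pairs, because the labels do not say that they mark a shared batch. Correlations of same-numbered deviations were 0.095, -0.052 and 0.14, the last being the highest between any libraries of the 2 strains. IMF17 replicate 1 correlated about equally with IMX2109 replicate 1 (0.095) and IMX2109 replicate 2 (0.096). With the replicate block, 25 members rose and 3 fell, and 685 features rose and 1517 fell. ATP16 did not pass with the block (limma adjusted p = 0.0534), while ATP15 (0.0353) and ATP17 (0.0417) did. Counts behind called genes went down to 72 reads in a library for COX26 among the members, and to 4 for NCA3, 17 for FMC1 and 37 for CYC7 outside them.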

Other observations

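Among 30 measured assembly and translation factors of these complexes that carry other names, 3 rose and 4 fell in IMF17, against 12.1% and 25.3% of all features tested. NCA3, described as a factor for expression of the mitochondrial ATP6 and ATP8 genes, had 2.76, 2.37 and 1.30 FPKM in the IMF17 libraries, against 0.367, 0.546 and 0.268 FPKM in the IMX2109 libraries. Its log2 fold change was 1.15, and it passed the filter at 1 FPKM only through IMF17, with 44, 36 and 21 reads in the IMF17 libraries, against 7, 10 and 4 reads in the IMX2109 libraries. With a pseudocount of 0.1 its log2 fold change was 2.16, and with a pseudocount of 5 it was 0.40. COA2, a complex IV assembly factor, had 280.0, 283 and 264 FPKM in the IMF17 libraries, against 232, 237 and 212 FPKM in the IMX2109 libraries, with a log2 fold change of 0.28 ± 0.050 (SE) and a limma adjusted p of 0.00136. The complex III assembly factor CBP4 changed by 0.23. The falls were in PET117, with 77.6, 84.4 and 89.6 FPKM in the IMF17 libraries, against 101, 104 and 110.3 FPKM in the IMX2109 libraries, and in CMC1, OXA1 and CBP6, at -0.23, -0.23 and -0.18 on the log2 scale. PET117 and CMC1 act in complex IV assembly, OXA1 inserts proteins into the inner membrane, and CBP6 acts in making cytochrome b. CBP4 and the genes that fell were named after their values were seen. On nuclear reads, 6 of the 30 rose and 1 fell, against 1033 that rose and 480 that fell of all 5427 features tested.

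Of 7 mitochondrially encoded subunits, 4 had a feature (COX1, COX2, ATP6 and OLI1), with at most 0.866 FPKM in any library. They were below the filter and not tested, in libraries of polyA RNA.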
